A study of Mus musculus with 6 samples.

Results

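The genes here, measured in cultured muscle cells of Sfpq knockout and control mice, encode heterogeneous nuclear ribonucleoproteins (hnRNPs) and the core machinery that removes introns. They were taken as a list of 50 named genes, grouped in 12 roles, of which 49 were matched to a RefSeq accession and had a TPM (transcripts per 1000000) of at least 1 in 3 or more libraries, out of 12461 genes that met the same level. Tra2a was not matched and was not analysed here. Primary myoblasts, the precursor cells of muscle fibres, came from skeletal muscle of 1-month-old male SfpqSM-KO mice, the knockout (n = 3), and of control mice (n = 3). Growth medium held 20% fetal bovine serum and 2.5 ng/mL of basic fibroblast growth factor, and cultures were then kept for 4 days in 2% horse serum, which drives myoblasts to fuse into myotubes. The promoter that drives the deletion, the genotype of the controls and the exons removed are not stated in the labels, and the labels do not say which animal or culture gave which library. The p-values therefore measure only the spread between these libraries, which may be partly technical.

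An intron is removed by the spliceosome, which assembles anew on each intron from small nuclear RNAs and proteins. U1 recognises the 5′ splice site, Sf1 and the U2af pair recognise the branch point and the 3′ splice site, U2 with its SF3a and SF3b proteins then pairs with the branch point, and the U4/U6.U5 tri-snRNP with the Prp19 complex completes the catalytic core. The hnRNPs coat the nascent transcript and, with other RNA-binding proteins, decide which splice sites are used, often by competing with the SR proteins. Sfpq belongs to the same nuclear world, as a protein of paraspeckles that binds introns and takes part in transcription and splicing. Many of these proteins control the splicing of their own transcripts.

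Sfpq stood at 18.3, 19.3 and 14.1 TPM in knockout replicates 1 to 3 and at 48.6, 60.5 and 49.9 TPM in the control replicates, so every library fitted its label. Its knockout mean was 32.5% of the control mean (log2 difference −1.57, SE 0.15), and even this difference had an adjusted p of 0.0531 in limma. Between 12216 and 12484 genes reached 1 TPM in each library, and the read depth behind the values is unknown, since TPM keeps no record of it. The libraries were those of differentiated muscle: 6 of 6 differentiation markers were expressed and summed to between 47450 and 50620 TPM in knockout and between 41990 and 43990 TPM in control. Markers of undifferentiated myoblasts (3 of 3 expressed) summed to 29.1 to 53.7 TPM in knockout and 54.3 to 57.4 TPM in control. Of 5 fibroblast markers 2 passed the filter, Col1a1 and Dpt, and the list summed to 12.6 to 27.5 TPM in knockout and 38.1 to 80.1 TPM in control, while Lum was under 1 TPM in all libraries. Smooth muscle and pericyte markers, of which 1 of 3 was expressed, summed to 9.004 to 18.4 TPM in knockout and 3.59 to 11.8 TPM in control. Endothelial, Schwann and adipocyte markers were under 1 TPM in every library, and the blood markers Ptprc and Adgre1 were listed at 0. The sums of the muscle, myoblast and fibroblast lists thus separated the genotypes, the muscle sum through Acta1 (28190 to 34410 TPM in knockout, 22820 to 25650 TPM in control). Without Acta1 the other 5 muscle markers summed to 16210 to 19480 TPM in knockout and 17180 to 21170 TPM in control, which overlap. The myoblast sums were barely apart. Singly, Pax7 and Myf5 overlapped and Mki67, at most 1.96 TPM, did not. Most of the fibroblast sum was Col1a1 (11.1 to 24.9 TPM in knockout, 30.3 to 75.9 TPM in control). Of its low genes Dcn overlapped, while Dpt and Pdgfra did not. The part of these markers in the results that follow was not tested. Here, as in any bulk sample, fewer cells of a type and less RNA per cell cannot be told apart.

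The summed level of the splicing machinery did not separate knockout from control. The 49 genes together held 4403, 4343 and 4500 TPM in the knockout libraries and 4191, 4937 and 4410 TPM in the control libraries, which is 0.419% to 0.494% of all TPM, and the genotypes overlapped. The highest sum was that of control replicate 2 and the lowest that of control replicate 1. Mean levels ran from 9.09 TPM for Hnrnpd to 603 TPM for Pcbp1, with a median of 62.7 TPM over the 49 genes against 17.5 TPM over all genes tested. No gene of the list passed the test across all genes (limma with Benjamini-Hochberg adjustment, 0 of 49 under 0.05), and 0% of all genes did. The smallest adjusted p in the list was 0.163, and the smallest of all genes was 0.0531. The knockout mean of a member lay at most 34.4% below and at most 22% above its control mean. Where a pair of means is given below, the knockout comes first and each is a mean ± SD of 3 libraries. Standard errors of the log2 differences ran from 0.07 to 0.17, so differences within about that size were not distinguishable here. Larger ones did not pass across all genes either, such as that of Rbmx at −0.56 (SE 0.11).

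Without adjustment, 6 members were lower and 2 higher in knockout at p under 0.05, which is 12.2% and 4.08% of the list. Of all genes tested, 9.62% were lower and 2.68% higher by the same rule, so the list stood near the background. Knockout libraries all lay below all control libraries for 13 members (26.5%) and above them for 3 (6.12%), against 15.3% and 4.27% of all genes. The median log2 difference, knockout minus control on the log2(TPM + 1) scale, was −0.08 over the members and −0.07 over all genes. On that scale 32 members had negative differences (65.3%, against 64.5% of all genes) and 17 positive ones. After median-of-ratios scaling, which sets the typical gene equal between libraries, the unadjusted counts were 3 lower and 4 higher, with 5.72% and 5.75% of all genes. The counts of groups that did not overlap were then 8 lower and 6 higher, with 9.15% and 9.28% of all genes. After quantile normalization the unadjusted counts were 5 lower and 3 higher, with 5.43% and 5.57% of all genes.

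**Figure D1:**
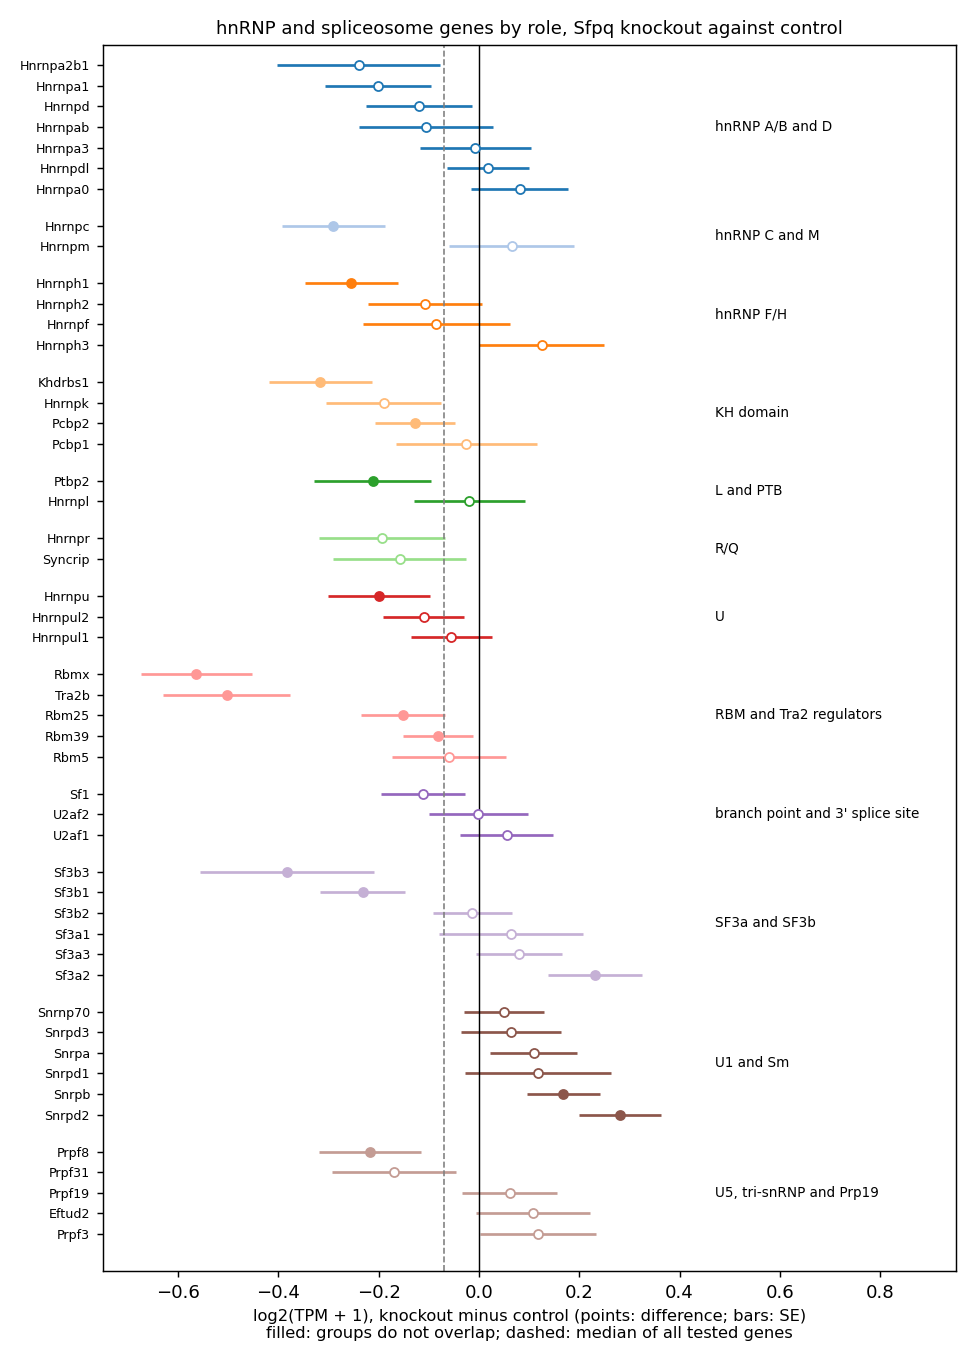
Difference in log2(TPM + 1), knockout minus control, for each of the 49 genes, in rows by role. Points are differences, bars are standard errors, filled points mark genes whose groups do not overlap, and the dashed line is the median of all tested genes (−0.07). Rbmx and Tra2b lie farthest to the left, and the 6 U1 and Sm genes all lie to the right of 0.

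The genes farthest below control were Rbmx and Tra2b, which encode partner proteins. Rbmx, also called hnRNP G, is an X-linked RNA-binding protein that joins Tra2b, an SR-like activator of exons, on shared target transcripts. Rbmx (NM_001166623) stood at 9.01, 11.01 and 9.64 TPM in knockout replicates 1 to 3 and at 14.8, 16.2 and 14.1 TPM in control replicates 1 to 3. The lowest control library was above the highest knockout library, and the means were 9.89 ± 1.02 and 15.1 ± 1.07 TPM (SD, n = 3). The log2 difference was −0.56 (SE 0.11), with the knockout at 65.6% of control, and it did not pass across all genes (limma adjusted p = 0.163, unadjusted p = 0.00164). Rbmxl1, a closely similar copy of Rbmx, was near equal at 29.8 ± 2.44 TPM (knockout) and 30.4 ± 5.39 TPM (control). How the authors' counting divided reads between the pair is not given, so the level of Rbmx is uncertain to that extent. Tra2b (NM_009186) stood at 23.0, 24.0 and 20.9 TPM in knockout and at 29.0, 38.5 and 30.6 TPM in control. Again no libraries overlapped, although control replicate 2 stood above the other two. The log2 difference was −0.50 (SE 0.13), the knockout mean was 69.2% of control, and the adjusted p of limma was 0.244. For both genes the unadjusted p stayed under 0.05 in each of 16 other settings. The groups stayed apart in each as well, but only a rescaling of the libraries (median-of-ratios or quantile) could have made them overlap. Without control replicate 2 the differences were −0.51 for Rbmx and −0.38 for Tra2b, and after median-of-ratios scaling −0.49 and −0.43. These were the only members with a log2 difference over 0.5 in size on the deposited scale.

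The promoters of this pair are shown because they had the largest differences. Each is the stretch of 250 bases before the annotated start on the gene's strand, from RefSeq on GRCm38.p6, with motif matches in capitals. Rbmx lies at chrX:57393037-57393286, minus strand, and Tra2b at chr16:22266006-22266255, minus strand.
Rbmx: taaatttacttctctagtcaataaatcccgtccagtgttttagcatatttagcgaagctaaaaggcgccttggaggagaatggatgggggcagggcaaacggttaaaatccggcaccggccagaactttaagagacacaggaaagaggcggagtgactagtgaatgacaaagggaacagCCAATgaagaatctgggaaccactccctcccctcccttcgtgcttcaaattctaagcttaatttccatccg
Tra2b: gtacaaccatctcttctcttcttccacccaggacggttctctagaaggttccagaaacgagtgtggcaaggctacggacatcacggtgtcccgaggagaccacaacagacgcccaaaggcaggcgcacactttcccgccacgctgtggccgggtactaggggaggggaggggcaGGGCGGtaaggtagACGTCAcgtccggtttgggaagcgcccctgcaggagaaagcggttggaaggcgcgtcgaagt
The Rbmx stretch held a CCAAT box (CCAAT, both strands searched) starting 71 bases before the start, and 46.8% of its bases were G or C. No base of either stretch lies in a GENCODE exon, while the RefSeq span of Rbmx, which covers several transcripts, includes the 10 bases nearest the start. In the Tra2b stretch (60.8% G or C) there was a GC box (GGGCGG) at 76 bases and a cAMP response element core (TGACGT, found on the opposite strand) at 62 bases before the start. Rbmx and Tra2b had no motif in common among the 5 searched, which also included an ETS core (CGGAAG) and a TATA box (TATAAA). Such matches are frequent: of 32851 stretches of the same length, 33.8% held a CCAAT box, 32.7% a GC box and 6.47% the response element core.

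**Figure D2:**
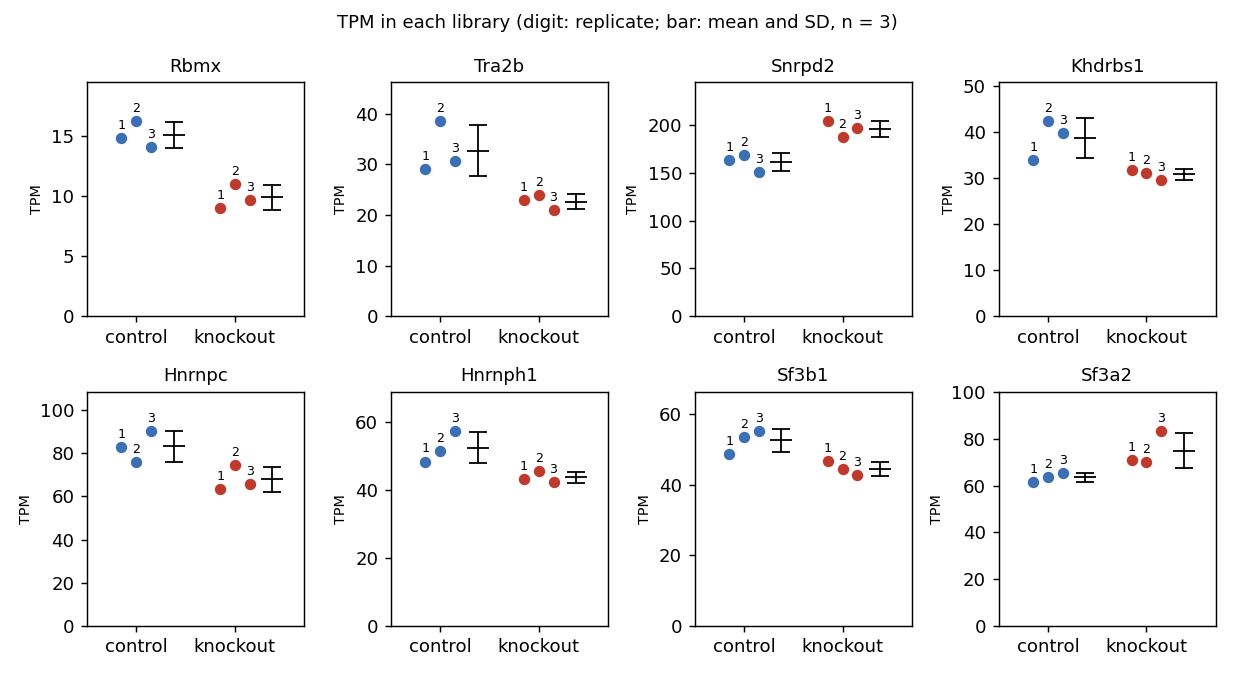
TPM in each library for the 8 members at an unadjusted p under 0.05, control on the left and knockout on the right of each panel, with axes from 0. Digits are replicate numbers, and the bar beside each group is the mean and SD (n = 3). No panel shows overlap between groups, and the gap is narrow for Hnrnpc (74.6 TPM in the highest knockout library, 76.1 TPM in the lowest control library).

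The other RBM genes lay closer to control. Rbm39, a U2AF-related splicing coactivator, was 59.7, 59.7 and 61.8 TPM in knockout and 63.3, 65.3 and 63.3 TPM in control. Its groups did not overlap, but the means differed by only a few percent (60.4 ± 1.19 and 64.0 ± 1.16 TPM), and the adjusted p of limma was 0.663. Rbm25, a U1-associated splicing regulator, was at 27.1 ± 0.71 against 30.2 ± 1.80 TPM, again without overlap (log2 difference −0.15). Rbm5, a regulator of apoptosis-related exons, overlapped, at 61.2 ± 4.71 and 64.1 ± 7.99 TPM. All 5 RBM and Tra2 genes had negative differences on the deposited scale, as had 64.5% of all genes, and 4 of 5 had groups apart, against 15.3% of all genes. After median-of-ratios scaling Rbm5 was slightly positive (0.01) and 3 had groups apart, against 9.15% of all genes.

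Among the RNA-binding proteins with KH domains, which bind single-stranded C-rich or A/U-rich RNA, Khdrbs1 differed most. Khdrbs1, known as Sam68, is a signal-responsive splicing regulator. It stood at 31.7, 31.0 and 29.5 TPM in knockout and at 33.9, 42.3 and 39.8 TPM in control. No library overlapped, the log2 difference was −0.32 (SE 0.10), and the adjusted p of limma was 0.327. Leaving out control replicate 2 gave −0.25 with an unadjusted p of 0.054. Pcbp1, an intronless poly(C)-binding protein gene and the most abundant member, was at 573, 544.5 and 671 TPM in knockout and 527, 711 and 589 TPM in control. Its libraries were interleaved, with control replicates holding both the highest and the lowest value (log2 difference −0.03, SE 0.14), and the sign turned positive (0.05) after median-of-ratios scaling. Pcbp2, its intron-bearing relative, was lower in every knockout library, at 143 ± 7.86 against 156 ± 6.16 TPM (log2 difference −0.13). Hnrnpk, the third poly(C) binder, was at 185, 176 and 184 TPM in knockout and 182, 241 and 203 TPM in control. The control spread for Hnrnpk came mainly from replicate 2, and without it the difference went from −0.19 to −0.08.

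The classical hnRNPs of the A/B and D type package nascent transcripts and silence exons or, for Hnrnpd, bind AU-rich elements. As deposited, 0 of these 7 members had groups apart (all genes 15.3% lower and 4.27% higher). After median-of-ratios scaling 1 was apart and higher in knockout, and without control replicate 2 this was 2 (all genes 9.28% and 12.3% higher). Hnrnpa1 was at 88.1 ± 3.85 TPM (knockout) and 102 ± 12.5 TPM (control), and Hnrnpa2b1 at 108 ± 13.0 and 129 ± 26.1 TPM. For both, control replicate 2 was the highest library (116 and 156 TPM). Hnrnpab (137 ± 4.31 against 149.6 ± 27.5 TPM) followed the same course, with 180.2 TPM in that library. Hnrnpa0 (90.2 ± 6.45 and 85.3 ± 7.45 TPM), Hnrnpa3 (36.1 ± 3.89 and 36.2 ± 2.73 TPM) and Hnrnpdl (59.8 ± 0.63 and 59.1 ± 4.07 TPM) were near equal. Hnrnpd was the least abundant of the group, at 8.65 ± 0.08 and 9.52 ± 0.92 TPM. The median log2 difference of the 7 was −0.11 as deposited, and without control replicate 2 it was 0.03. Pseudogenes of Hnrnpa1 and Hnrnpa3 resemble their parent transcripts, so both levels depend on how such reads were assigned, which is not given.

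Hnrnpc and Hnrnpm differed in direction. Hnrnpc, which binds uridine tracts and keeps U2af2 off cryptic sites, was at 63.3, 74.6 and 65.9 TPM in knockout and at 83.2, 76.1 and 90.5 TPM in control. Its control replicate 2 was the lowest of the controls, unlike most members, and the groups were barely apart. The log2 difference was −0.29 (SE 0.10) with a limma adjusted p of 0.348. Hnrnpm, a GU-binding regulator, stood at 59.2 ± 3.07 and 57.0 ± 9.28 TPM with overlap.

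In the F/H group, whose proteins bind runs of G, Hnrnph1 was lower in each knockout library, at 43.4, 45.7 and 42.3 TPM against 48.5, 51.6 and 57.5 TPM in control. Its log2 difference was −0.25 (SE 0.09) and its limma adjusted p was 0.354. The others overlapped: Hnrnph2, its X-linked paralog, was at 38.5 ± 2.05 and 41.8 ± 5.46 TPM, Hnrnpf at 66.9 ± 3.87 and 71.9 ± 14.9 TPM, and Hnrnph3 at 13.7 ± 1.54 and 12.5 ± 1.24 TPM. Hnrnph3 was the only member of this group with a positive difference (0.12).

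The remaining hnRNPs had small negative differences. Ptbp2, the paralog of the polypyrimidine tract-binding protein best known from neurons, was at 10.54 ± 0.60 TPM (knockout) and 12.4 ± 1.55 TPM (control), with groups just apart. Hnrnpl, which binds CA repeats, was near equal at 188 ± 11.6 and 191 ± 23.8 TPM. Hnrnpr and Syncrip, the closely related hnRNP R and Q, were at 12.6 ± 1.01 against 14.6 ± 2.05 TPM and at 27.9 ± 2.93 against 31.3 ± 4.72 TPM, and both overlapped. Hnrnpu, a scaffold protein of nuclear chromatin, was at 87.9, 82.8 and 86.1 TPM in knockout and 89.3, 112 and 95.3 TPM in control, so that its groups were apart by a narrow gap. Its relatives Hnrnpul1 (77.2 ± 0.77 and 80.4 ± 5.73 TPM) and Hnrnpul2 (46.8 ± 1.85 and 50.6 ± 2.77 TPM) overlapped.

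The U1 and Sm group leaned the other way, with positive differences for all 6 genes, from 0.05 to 0.28. Their median was 0.11, against −0.07 for all genes. The other core groups, given below, were mixed in sign. The Sm proteins form the ring around which U1, U2, U4 and U5 particles are built. Snrpd2, which encodes the ring protein SmD2, stood at 204, 187 and 196 TPM in knockout and 163, 169 and 151 TPM in control. The groups were well apart, with a log2 difference of 0.28 (SE 0.08), a knockout mean at 122% of control and a limma adjusted p of 0.289. Snrpb, which encodes SmB and its splice form SmB′, was at 374, 366.5 and 377 TPM in knockout and 337.5, 334 and 323 TPM in control. Replicates of Snrpb agreed within a few percent, and the groups did not overlap (log2 difference 0.17, SE 0.07, limma adjusted p = 0.417). The other Sm members overlapped: Snrpd3 was at 195 ± 20.0 and 186 ± 9.73 TPM, and Snrpd1 at 30.5 ± 3.16 and 28.2 ± 4.99 TPM. So did the U1 proteins Snrnp70 (132 ± 6.37 and 127 ± 6.13 TPM) and Snrpa (73.4 ± 4.88 and 68.0 ± 3.50 TPM). The remaining ring proteins, from the wider list described below, overlapped and had log2 differences of −0.11, 0.04 and −0.08, with Snrpe at 91.1 ± 9.45 and 98.5 ± 11.3 TPM, Snrpf at 22.3 ± 2.06 and 21.6 ± 2.69 TPM and Snrpg at 97.7 ± 2.99 and 106 ± 34.0 TPM. All 6 U1 and Sm members kept a positive difference after median-of-ratios scaling (median 0.18), after quantile normalization (0.16) and without control replicate 2 (0.16). Snrpd3 kept it in 15 of 16 other settings, with a lowest value of −0.018.

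U2 proteins were divided within single complexes. In SF3a, Sf3a2 was higher in each knockout library, at 71.0, 70.3 and 83.6 TPM against 61.4, 63.8 and 65.4 TPM in control (log2 difference 0.23, SE 0.09, limma adjusted p = 0.391, unadjusted p = 0.0762 without control replicate 2). Knockout replicate 3 was the highest of these, and the coding gene Plekhj1 overlaps it from the other strand. Its partners Sf3a1 (26.8 ± 1.99 and 25.8 ± 4.91 TPM) and Sf3a3 (51.0 ± 2.37 and 48.2 ± 3.32 TPM) overlapped. In SF3b, Sf3b1, the subunit that clamps the branch point helix, was lower in each knockout library, at 46.7, 44.4 and 42.7 TPM against 48.8, 53.5 and 55.3 TPM (log2 difference −0.23, SE 0.09, limma adjusted p = 0.364, unadjusted p = 0.0675 without control replicate 2). Sf3b3 also had groups apart, at 41.5, 34.5 and 36.3 TPM against 42.3, 64.0 and 43.4 TPM. Control replicate 2 stood far above the others for Sf3b3: with that library the log2 difference was −0.38 (SE 0.17), and without it −0.19. Sf3b2 overlapped, at 124 ± 5.78 and 125 ± 5.75 TPM.

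The same search was made for Snrpd2 and Sf3a2, the higher members with the smallest p that have a single start in the table. Their stretches are not printed, since 116 bases of the former and all 250 of the latter lie in exons that GENCODE annotates. GENCODE starts these genes at chr7:19149722 and chr10:80798198, upstream of the RefSeq starts used for the stretches. The RefSeq span of Snrpd2 also includes all 250 bases of its stretch. Each stretch held 2 copies of the ETS core CGGAAG on the gene's strand. They lay at 52 and 32 bases before the start in Snrpd2 and at 129 and 75 bases in Sf3a2. Each also held a GC box, on the opposite strand in Snrpd2 (24 bases) and on the gene's strand in Sf3a2 (212 bases). Of all 32851 stretches, 13.6% held the ETS core on either strand. In the stretches of the members, 59 for the 43 members in the table, the ETS core was in 40.7%, the GC box in 59.3%, the CCAAT box in 52.5%, the response element core in 18.6% and the TATA box in 6.78% (12.4% of all). The median share of G or C was 60.4% in the members' stretches and 52.4% in all. These are counts of letters, and no binding was measured.

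Genes for the remaining steps showed little difference. The factors that define the 3′ end of the intron were near equal: U2af1, which reads the terminal AG, was at 110.4 ± 8.29 and 106 ± 7.27 TPM, U2af2, which binds the polypyrimidine tract, at 109.9 ± 7.77 and 110.1 ± 10.02 TPM, and Sf1, the branch point binder, at 56.6 ± 3.13 and 61.3 ± 3.33 TPM. Prpf8, the largest protein of the catalytic core, was lower in each knockout library, at 85.1, 78.7 and 68.4 TPM against 86.0, 94.3 and 89.2 TPM, with a gap of under 1 TPM between the groups (log2 difference −0.22, limma adjusted p = 0.441). Eftud2, the U5 GTPase that works beside it, overlapped, at 70.2 ± 8.29 and 64.9 ± 5.70 TPM. Of the U4/U6 proteins, Prpf3 was at 18.9 ± 1.55 and 17.4 ± 2.01 TPM and Prpf31 at 21.3 ± 2.57 and 24.1 ± 2.44 TPM. Prpf19, the ubiquitin ligase that names the Prp19 complex, was at 179.8, 214 and 189 TPM in knockout and 176, 186 and 196 TPM in control, with overlap (log2 difference 0.06, SE 0.10).

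Seen as 2 classes, a division made after the values were known, the 29 hnRNP and regulator genes and the 20 core genes lay on opposite sides of 0. Of the former, 25 had negative and 4 positive differences (median −0.12), and 5 were lower and 0 higher at an unadjusted p under 0.05 (all genes 9.62% and 2.68%). Knockout libraries lay all below control for 10 of them and all above for 0 (all genes 15.3% and 4.27%). Of the core genes 7 were negative and 13 positive (median 0.06), with 1 lower and 2 higher at that p, and 3 apart in each direction. The medians kept these signs in each of the 16 other settings, but not their size. The other filters, the fit without intensity trend, robust moderation and the replicate block leave every difference unchanged, so they could not alter the signs. After median-of-ratios scaling they were −0.05 and 0.14, without control replicate 2 −0.07 and 0.11, and with both changes together −0.02 and 0.15. In that last setting 16 hnRNP and regulator genes were negative and 13 positive. As deposited, all 6 U1 and Sm genes were positive, while the other core groups were mixed. Negative and positive differences were 2 and 1 for the branch point and 3′ splice site and 3 and 3 for SF3a and SF3b. They were 2 and 3 for U5, tri-snRNP and Prp19. The 105 further spliceosome and hnRNP genes described below had a median of −0.05 as deposited and 0.02 after median-of-ratios scaling. The distance between the 2 classes was not tested, since the classes were drawn from the same values.

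**Figure D3:**
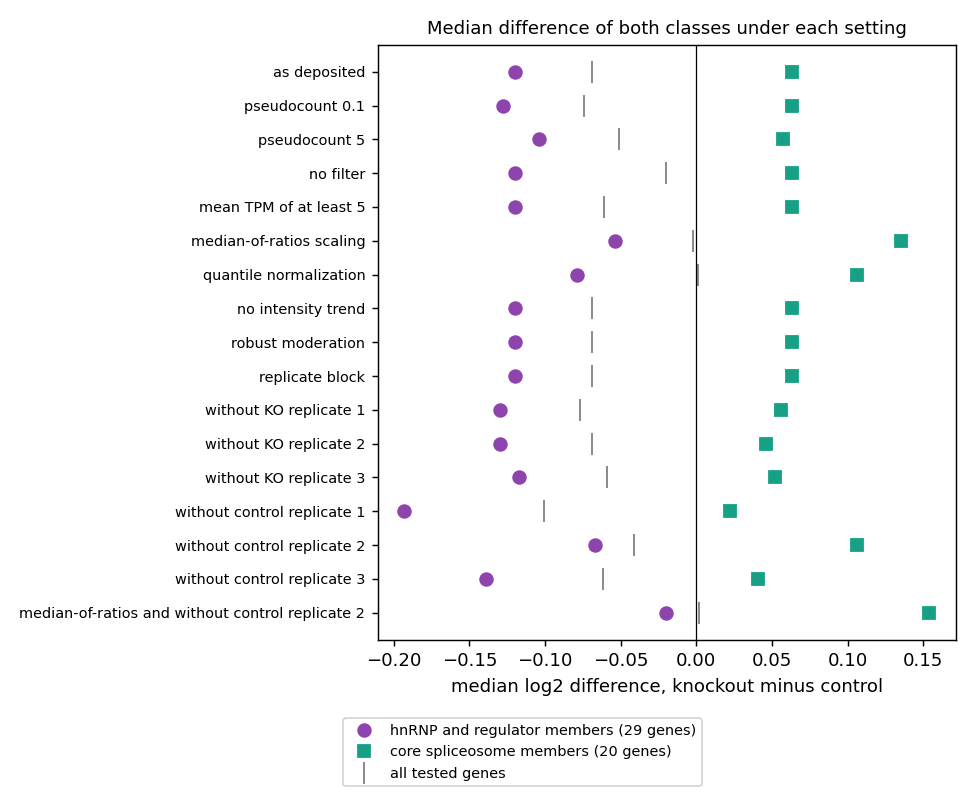
Median log2 difference, knockout minus control, of the hnRNP and regulator genes (circles, 29), the core spliceosome genes (squares, 20) and all tested genes (ticks) in each setting, which are listed on the vertical axis. The circles lie to the left of 0 and the squares to the right of 0 in every row, and the circles come nearest to 0 (−0.02) with median-of-ratios scaling and control replicate 2 left out.

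Control replicate 2 stood apart in this gene group more than in the transcriptome at large. It held the highest of the 6 values for 29 of 49 members (59.2%), while over all genes tested it did so for 32.4%. After median-of-ratios scaling it was still highest for 23 members (46.9%), against 19.3% of all genes. Its median deviation from a gene's own mean was 0.14 on the log2 scale over the members and 0.08 over all genes. The members varied less within knockout (median SD 0.09 on the log2 scale) than within control (0.12), and the control SD was the larger for 34 of 49 members, 69.4% against 56.1% of all genes. After median-of-ratios scaling this was 28 of 49 members, 57.1% against 52.7%, with median SDs of 0.08 and 0.10. Without this library the members whose groups did not overlap were 13 lower (26.5%) and 12 higher (24.5%), against 23.5% and 12.3% of all genes with 3 knockout and 2 control libraries, and the median difference of the members was 0.01. At an unadjusted p under 0.05 in limma, 4 members were lower and 1 higher without it (all genes 10.4% and 5.01%). The lower ones were Rbmx, Tra2b, Hnrnpc and Hnrnph1 (0.00556, 0.00917, 0.0162 and 0.0473), and the higher one was Snrpd2 (0.0114).

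**Figure D4:**
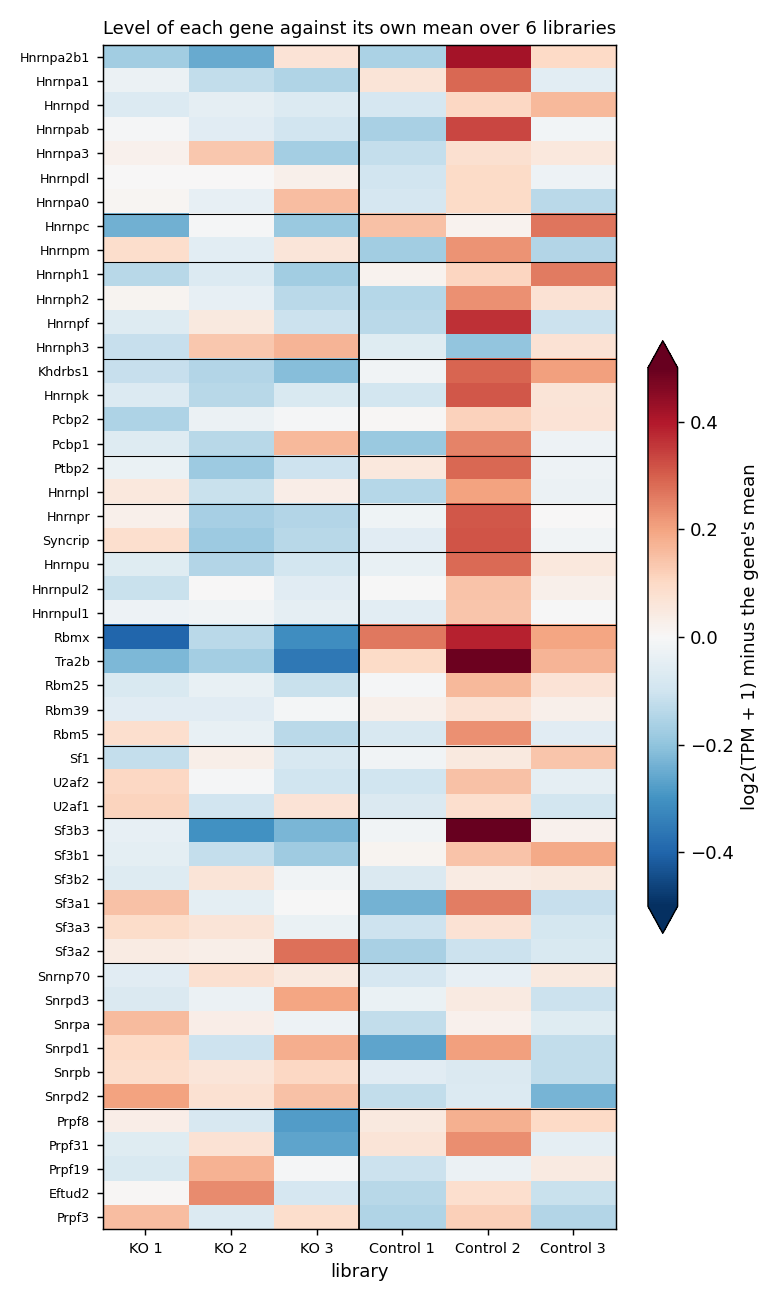
Level of each of the 49 genes in each library as log2(TPM + 1) minus the gene's mean over the 6 libraries, with rows grouped by role as in the plot of differences by role and a line between genotypes. Red is above and blue below the gene's mean, and the colour scale ends at 0.5. The column of control replicate 2 is red for most hnRNP rows, while Rbmx and Tra2b are blue in all knockout libraries.

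Like most tested genes, all 49 members spanned less than 100 kb. Their spans ran from 1.71 kb for Pcbp1 to 65.9 kb for Ptbp2, with a median of 17.6 kb. Of 11951 tested genes with a span, 11.8% reached 100 kb and the median was 21.7 kb. Long genes are the subject named in the study's title, and none by this cutoff is among the members. Rbmx spans 9.7 kb, Tra2b 21.5 kb and Snrpd2 3.29 kb. Each member had 1 accession in the files, so splice forms of a member could not be compared. A coding gene of the other strand overlaps 9 members in GENCODE, among them Hnrnpu, Hnrnpk, Sf3b3 and Sf3a2, and use of strand in the counting is not given. None such overlaps Rbmx, Tra2b, Snrpd2, Snrpb or Khdrbs1.

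Other genes of the same machinery lay near the background. Of 110 further spliceosome and hnRNP genes, 105 were tested, and 0 passed in limma over all genes. At an unadjusted p under 0.05, 8 were lower (7.62%) and 1 higher (0.952%), and groups were apart for 13 lower (12.4%) and 2 higher (1.9%). The median log2 difference was −0.05. After median-of-ratios scaling the balance turned: 3 were lower and 4 higher at that p, groups were apart for 6 lower and 12 higher (5.71% and 11.4%, against 9.15% and 9.28% of all genes), and the median was 0.02. Raly, an hnRNP C relative, was at 276 ± 20.6 against 344 ± 12.9 TPM (log2 difference −0.32, limma adjusted p = 0.266). Smndc1 was at 17.5 ± 1.34 against 21.4 ± 1.62 TPM and Ppih, a tri-snRNP cyclophilin, at 8.999 ± 0.58 against 11.7 ± 1.57 TPM. Snrnp200, the U5 helicase, and Snrpa1, a U2 protein, stood at 41.5 ± 1.59 against 47.7 ± 1.90 TPM and 19.2 ± 1.76 against 23.2 ± 1.68 TPM. On the higher side Lsm7, a ring protein of U6, was at 114 ± 0.93 against 96.2 ± 11.2 TPM (log2 difference 0.25, limma adjusted p = 0.387). Pcbp4, Syf2, Khdrbs3, Ddx23 and Eif4a3 came next, with log2 differences of 0.26, 0.15, 0.40, 0.15 and 0.17. Ptbp1, the paralog of Ptbp2, overlapped, at 38.4 ± 3.89 and 38.4 ± 11.7 TPM.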

How the data were processed

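PolyA RNA of differentiated primary myoblasts was sequenced in 3 knockout and 3 control libraries. The authors deposited TPM values, 1 per RefSeq accession, summing to 1000000 in each library. STAR 2.4.1d and mm10 are named in the submitters' processing notes. The counting tool, annotation release and strand use are not stated in the labels or files used. Depth is therefore unknown and no counting interval is given.

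Accessions (34671) were named through a RefSeq table of GRCm38.p6 (30818) or GENCODE M21 (107), and 3746 stayed unnamed. TPM was summed per symbol. Genes with at least 1 TPM in 3 or more libraries entered limma 3.58.1 (R 4.3.3) as log2(TPM + 1) (intensity trend, 2-sided, no block, Benjamini-Hochberg over all genes, threshold 0.05). A difference on this scale understates the change of low genes. Groups come from the titles. Members, lists and roles were chosen with earlier results of these data known. Per-library values are given for members at an unadjusted p under 0.05 and for the 4 with the highest TPM, and others with groups apart were added after their values were seen. Of the other list, up to 6 genes per direction with the smallest p are named. A gene that this rule selects is not reported here. On simulated data over 12461 genes, the fit recovered 55% of genes changed by a log2 of 1 and 88% of those changed by 2. It made 7 false calls. The simulated noise was drawn for each gene alone, without a shift shared across a library, so these rates may not hold for the real values. Python 3.11.15, pandas 2.3.3 and matplotlib 3.10.9 were used.

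Alternatives covered pseudocounts of 0.1 and 5, no filter, a mean TPM of at least 5, both scalings, robust moderation, no intensity trend, a replicate block, an adjusted p under 0.1 and each library left out. Median-of-ratios scaling without control replicate 2 was added after seeing the data.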

Additional observations from a re-analysis of the deposited data

How the results depend on the processing

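The count of members past the adjusted threshold was 0 in each alternative run, as was that of the other spliceosome and hnRNP genes, also at an adjusted p under 0.1. The smallest adjusted p of any member in any alternative was 0.151 (limma). The 6 lower members at an unadjusted p under 0.05 became 3 after median-of-ratios scaling, 3 with the replicate block, and 2 to 9 with a library left out. Of all genes, 9.62% were lower by this rule as deposited, and 5.72%, 6.7% and 5.48% to 10.4% in these settings. The 2 higher members became 4 after median-of-ratios scaling, 1 without the intensity trend, 1 with the replicate block, and 0 to 2 with a library left out. Of all genes, 2.68% were higher as deposited, and 5.75%, 2.59%, 1.8% and 1.73% to 5.01% in these settings. With median-of-ratios scaling and control replicate 2 left out, 3 were lower (6.12%) and 6 higher (12.2%), against 8.16% and 7.69% of all genes. Lower members with groups apart went from 13 to 8 after median-of-ratios scaling, and were 13 to 20 with a library left out (20 without control replicate 1, where 25.2% of all genes were apart lower). Higher ones went from 3 to 6, and were 3 to 12 with a library left out (12 without control replicate 2, against 12.3% of all genes). With both changes they were 8 and 16, against 18.7% and 18.3% of all genes. The members' median log2 difference ran from −0.124 without control replicate 1 to 0.006 without control replicate 2, and was 0.053 with both changes. The cause of these shifts was not tested. The signs of 33 of 49 members held in all 16 alternatives. The other filters, the fit without intensity trend, robust moderation and the replicate block leave each difference unchanged, so a sign could turn only in the rest. Pcbp1 turned from −0.025 to 0.048 after median-of-ratios scaling, to 0.14 with both changes, and with a library left out to as much as 0.092 (0 without knockout replicate 1, 0.037 without knockout replicate 2), and Prpf19 ran from −0.011 without knockout replicate 2 to 0.115 without knockout replicate 1. Of the members under 0.05, Snrpd2 lost that only without control replicate 3, Khdrbs1 in 4 alternatives, Hnrnph1 in 6, and Hnrnpc, Sf3a2 and Sf3b1 in 7 each.

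The labels state no pairing behind the shared replicate numbers. Deviations of same-numbered libraries from their group means correlated at −0.26, −0.247 and 0.049, and those of other pairs across genotypes at −0.265 to 0.412. The replicate block reduced the unadjusted counts of all genes from 1199 lower and 334 higher to 835 and 224. It also leaves less data to estimate the spread, so these counts cannot settle whether libraries were paired. The planned tests of member transcripts and of isoform usage were not run, because the files hold 1 accession for each member. TPM without depth limits what can be said of the precision of single values.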
